A study of Rattus norvegicus with 4 samples.

Results

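The tumour necrosis factor (TNF) superfamily was examined in NR8383 cells, an established line of rat alveolar macrophages. Members were taken by gene symbol: every RefSeq symbol that begins with Tnfsf, Tnfrsf or Traf and a digit, together with Tnf, Lta, Ltb, Ltbr, Fas, Faslg, Cd40, Cd40lg, Cd27, Cd70, Tradd and Fadd. The rule gave 56 symbols, of which 44 had at least 1 probe on the array among 16581 named genes in all. These 44 genes were read by 50 probes in 69 spots per array. The 12 others had no matched probe and were not analysed here; they comprise Tnfsf8, Tnfsf18, Tnfrsf10b, Tnfrsf13c, Tnfrsf22, Tnfrsf26, Traf3, Traf5 and 4 pseudogenes. The rule uses names and no measured value.

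The series holds 1 group of 4 biological replicates, each hybridised to 1 one-colour array. All were water controls of 4 h that carry the tag ALI, which the labels leave unexplained. The cells were originally washed from the lung of a healthy rat. They grew as 50% adherent and 50% floating cells in medium with 15% serum, had 20 passages behind them and were seeded for 48 h in flasks of 25 cm2. No gene alteration and no agent other than water are named, so the measurements describe the line in its control state, and a single line stands for the cell type. With 1 group there is no contrast between conditions; the questions were which members were detected and how far they varied between replicate cultures.

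TNF superfamily ligands are mostly trimeric membrane proteins, some of which are cleaved to a soluble form. They cluster their receptors, which either carry a death domain that recruits the adaptors TRADD or FADD, or bind TRAF proteins directly. TRADD and TRAF2 assemble ubiquitin ligases and kinases that switch on NF-kB and MAP kinases, whereas FADD recruits caspase-8. Macrophages are a main source of TNF itself, while many other members, such as CD40 ligand, CD27 and the BAFF receptors, are known from lymphocytes.

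Each value is a log2 signal from which the array's own 75th percentile was taken, given as mean ± SD (n = 4 arrays) or for replicates 1 to 4 in turn. Probes differ in affinity, so a value follows 1 probe across arrays and does not rank genes. Detection rests on the scanner software's flag for spots well above background. A gene counts as detected if 1 or more of its probes carried the flag on all 4 arrays, as not detected if none carried it anywhere, and as partly detected in between. The 75th percentile itself lay between intensities of 831 and 1237, with replicate 3 the highest, and 49.2% to 50.3% of gene spots were well above background. All 10 macrophage markers checked were detected, among them Cd68, Csf1r and Spi1. Of 46 markers of other cell types with a named probe, 14 were detected, 3 partly and 29 not. Of the T cell markers 3 of 7 were detected (Cd4, Cd28 and Lck), Cd3d had the flag on 2 arrays, and Cd3e, Cd3g and Cd8a on none. Of the B cell markers 2 of 5 were detected (Pax5 and Fcrla), and Cd79b and Blk had the flag on no array. Of the NK cell markers 3 of 7 were detected (Gzmb, Nkg7 and Tbx21), of the endothelial ones 3 of 5 (Cdh5, Pecam1 and Vwf) and of the epithelial ones 0 of 7. The part of such transcripts in the members' signals was not tested.

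Of the 44 members, 21 (47.7%) were detected, 1 partly and 22 not, beside 51.0% of all named genes detected. As a whole the superfamily thus lay near the background. By role, 6 of 15 ligands (40.0%) and 6 of 19 receptors (31.6%) were detected, against 6 of 7 adaptors (85.7%) and 3 of 3 TRAF3-interacting proteins; the difference between roles was not tested. In these bulk samples fewer cells with a transcript and less transcript per cell cannot be told apart.

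**Figure D1:**
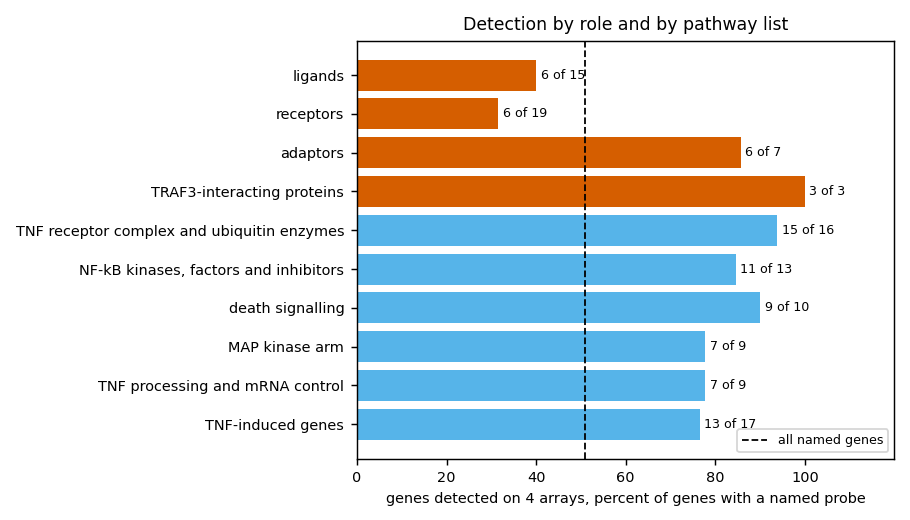
Horizontal bars give the percentage of genes with a named probe that were detected on 4 of 4 arrays, for the 4 roles of the TNF superfamily (orange) and for 6 lists of pathway genes (blue), with the counts at the bar ends. The dashed line marks 51.0%, the share among all named genes; ligands and receptors end left of it, and adaptors and the pathway lists right of it.

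Among the ligands, Tnf, Ltb, Tnfsf9, Tnfsf12, Tnfsf13 and Tnfsf15 were detected. Tnf, the founding ligand and a main product of activated macrophages, was at 2.57, 2.82, 2.97 and 2.31 on replicates 1 to 4 (2.67 ± 0.29). Replicate 3 was highest and replicate 4 lowest, a range of 0.67. The second Tnf probe was much dimmer, at -3.90, -3.09, -3.01 and -4.22, and it too was well above background on 4 arrays. Both probes placed the arrays in the same order, and the range of the dim one was wider, at 1.20.

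Ltb, the membrane-anchored lymphotoxin beta, was at -1.22, -1.00, -0.84 and -1.43 (-1.12 ± 0.25), again highest on replicate 3 and lowest on replicate 4. Lta, the lymphotoxin alpha that pairs with it in the membrane complex, was not well above background on any array. Its 1 probe was at -5.36, -6.75, -6.22 and -7.16. On replicate 1 that lay above -5.52, the lowest signal called well above background on that array. On replicates 1 to 3 it was above the 95th percentile of the negative controls, and on replicate 4 just below it. By the flag the partner subunits of lymphotoxin differed: Ltb carried it on every array and Lta on none. These values do not show that the Lta transcript was absent.

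Tnfsf12 and Tnfsf13, which encode TWEAK and the B cell factor APRIL, each varied little between arrays. Tnfsf12 was at 4.18, 4.21, 4.10 and 4.05 (4.14 ± 0.07), the smallest SD of the detected members. Tnfsf13 was at 3.93, 3.95, 3.98 and 4.12 (4.00 ± 0.09). Its close relative Tnfsf13b, which encodes BAFF, was the 1 partly detected member: it was well above background on replicates 2, 3 and 4 (-4.75, -5.05 and -5.16) and not on replicate 1 (-5.58). Over all named genes 6.43% were partly detected.

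Tnfsf15, the ligand TL1A, was at -2.69, -2.58, -2.22 and -2.47 (-2.49 ± 0.20), highest on replicate 3. Tnfsf9, a costimulatory ligand for T cells, was at -3.50, -3.37, -3.11 and -3.59 (-3.39 ± 0.21), with replicate 3 again highest and replicate 4 lowest. The 8 ligands not detected were Lta, Faslg, Cd40lg, Cd70, Tnfsf4, Tnfsf10, Tnfsf11 and Tnfsf14. They include the death ligands of Fas and of the TRAIL system and the osteoclast factor RANKL.

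**Figure D2:**
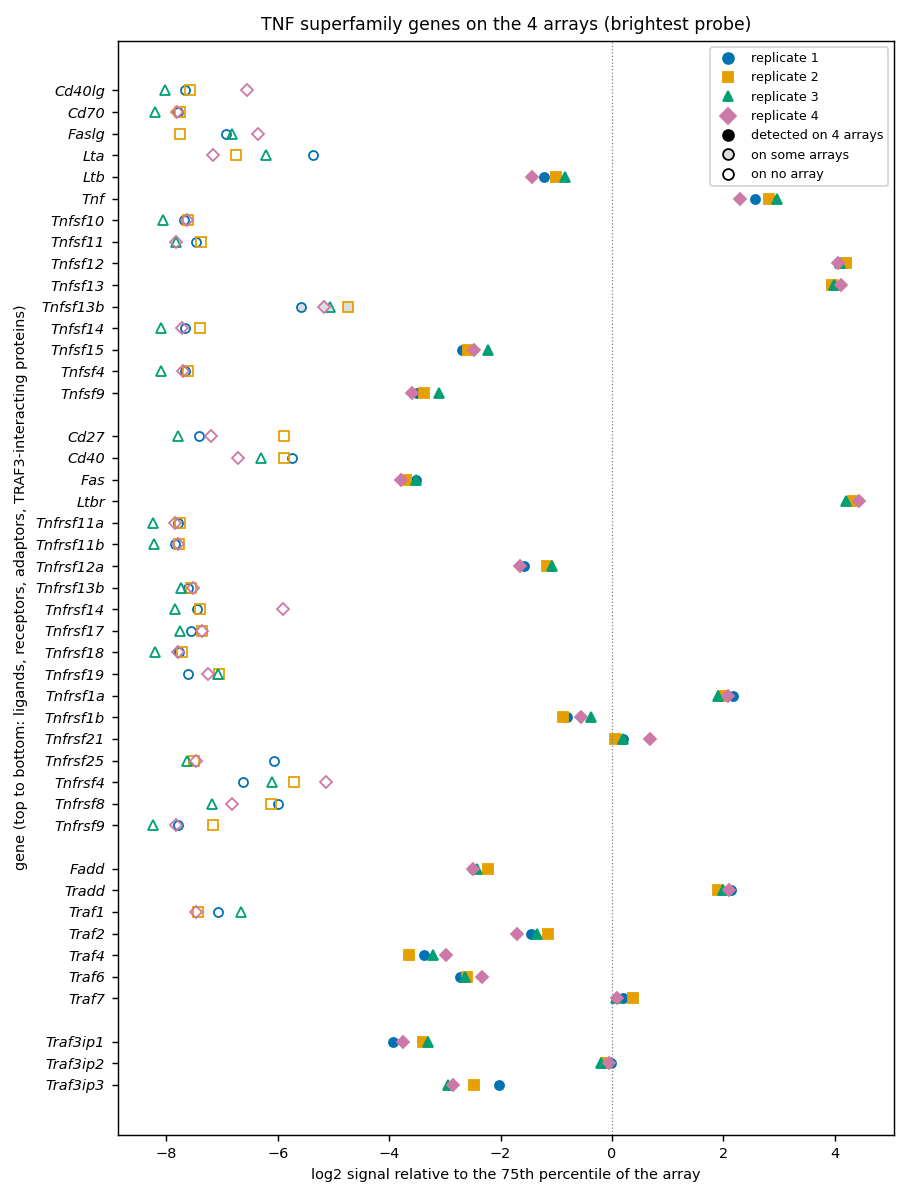
Each row is 1 gene, read by its brightest probe, with 1 symbol per replicate array on a horizontal axis of log2 signal against the array's 75th percentile; filled symbols mark genes detected on 4 arrays, grey ones the gene detected on some, and open ones genes detected on none. Open symbols lie between -8.24 and -5.13, and the 4 arrays of a detected gene span at most 0.90; probes differ in affinity, so rows are not to be ranked against each other.

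Lta, Tnf and Ltb lie next to each other in the RefSeq annotation of the assembly GRCr8, with no coding gene between them, although only Tnf and Ltb were detected. The 250 bases before the start that RefSeq gives for each of them are shown to let these neighbours be compared, with Tnfrsf12a added because its arrays fell in the same order as those of Tnf and Ltb. The choice was made after the values were seen. RefSeq promoters of GRCr8 matched 33 of the 44 members, and Tnfsf9 had none. Capitals mark matches on either strand to the NF-kB consensus (GGG, a purine, any base, A or T, a pair of pyrimidines and CC), to the AP-1 motif TGANTCA, which reads alike on both strands, and to the TATA box TATAAA. The windows are, for Lta, chr20:3623277-3623526 on the plus strand, for Tnf chr20:3626435-3626684 on the plus strand, for Ltb chr20:3634055-3634304 on the minus strand, and for Tnfrsf12a chr10:13213649-13213898 on the minus strand, all in GRCr8 and all written 5′ to 3′ in the direction of the gene.
Lta: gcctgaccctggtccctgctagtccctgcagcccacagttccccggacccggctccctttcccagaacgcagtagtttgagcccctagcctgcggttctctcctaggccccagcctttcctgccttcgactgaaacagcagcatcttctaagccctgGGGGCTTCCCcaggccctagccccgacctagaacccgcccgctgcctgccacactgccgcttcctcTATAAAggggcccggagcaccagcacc
Tnf: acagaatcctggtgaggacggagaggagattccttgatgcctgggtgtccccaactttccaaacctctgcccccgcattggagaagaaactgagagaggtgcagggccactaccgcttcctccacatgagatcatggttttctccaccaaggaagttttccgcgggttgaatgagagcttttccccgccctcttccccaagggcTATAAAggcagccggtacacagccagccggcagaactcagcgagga
Ltb: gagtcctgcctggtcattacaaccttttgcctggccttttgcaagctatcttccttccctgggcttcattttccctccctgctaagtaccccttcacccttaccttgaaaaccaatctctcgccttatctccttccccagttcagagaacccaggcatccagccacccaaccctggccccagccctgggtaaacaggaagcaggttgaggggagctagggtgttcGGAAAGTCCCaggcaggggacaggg
Tnfrsf12a: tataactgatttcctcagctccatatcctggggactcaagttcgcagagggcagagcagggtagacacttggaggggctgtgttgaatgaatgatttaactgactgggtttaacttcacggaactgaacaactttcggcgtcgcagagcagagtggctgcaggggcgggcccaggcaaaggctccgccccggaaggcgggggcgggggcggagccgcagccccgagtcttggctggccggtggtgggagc

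Lta, the member of this trio that was not detected, held both an NF-kB match, GGGGCTTCCC from 93 to 84 bases before the start, and a TATA box from 27 to 22 bases before it. Tnf held a TATA box from 46 to 41 bases before the start and no match to the other motifs in this window. Ltb held 1 NF-kB match, GGAAAGTCCC as read along the gene, from 25 to 16 bases before the start. Tnfrsf12a held none of the 3 motifs. Among all 33469 promoters of this length, 3.54% held the NF-kB consensus, 6.34% the AP-1 motif and 12.9% the TATA box. Of the 17 detected members with a promoter, 2 held the NF-kB consensus (Ltb and Traf3ip2), and of the 15 not detected, 3 did (Lta, Tnfrsf8 and Tnfsf14). The AP-1 motif was held by 3 of the 17 and 2 of the 15, and the TATA box by 2 of the 17 and 4 of the 15. These differences were not tested. A match describes letters only.

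Among the receptors, Tnfrsf1a, Tnfrsf1b, Tnfrsf12a, Tnfrsf21, Ltbr and Fas were detected. Tnfrsf1a, the death domain receptor for TNF that most cells carry, was at 2.17, 2.00, 1.91 and 2.08 (2.04 ± 0.11). Tnfrsf1b, the TNF receptor without a death domain that is typical of leukocytes, was at -0.80, -0.88, -0.37 and -0.55 (-0.65 ± 0.24). Tnfrsf1a was lowest and Tnfrsf1b highest on replicate 3, so the receptors for TNF did not follow a common array order.

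Ltbr, the receptor for the membrane lymphotoxin complex, was at 4.28, 4.33, 4.20 and 4.44 (4.31 ± 0.10). Tnfrsf12a, the TWEAK receptor, was at -1.58, -1.17, -1.07 and -1.65 (-1.37 ± 0.29), with replicates 2 and 3 above replicates 1 and 4. Tnfrsf21, a death domain receptor known as death receptor 6, was at 0.21, 0.05, 0.20 and 0.68 (0.29 ± 0.27), highest on replicate 4. Fas, the death receptor for Fas ligand, was at -3.53, -3.71, -3.51 and -3.79 (-3.63 ± 0.14) by its bright probe, while its second probe was not well above background on any array.

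The 13 receptors not detected were Cd27, Cd40, Tnfrsf4, Tnfrsf8, Tnfrsf9, Tnfrsf11a, Tnfrsf11b, Tnfrsf13b, Tnfrsf14, Tnfrsf17, Tnfrsf18, Tnfrsf19 and Tnfrsf25. They include costimulatory receptors of T cells (Cd27, Tnfrsf4, Tnfrsf9, Tnfrsf18) and the B lineage receptors for APRIL and BAFF (Tnfrsf13b, Tnfrsf17). Cd40, the activating receptor of antigen-presenting cells, was read by a pair of probes, neither well above background on any array, its brighter one at -5.74, -5.88, -6.31 and -6.71. Tnfrsf11a, the receptor RANK of osteoclast precursors, was at -7.79, -7.76, -8.24 and -7.84. Over the 22 members not detected, the 24 probes lay between -8.24 and -5.13 with a median of -7.57. Only Cd27 and Cd40 among them were read by more than 1 probe. The lowest signal called well above background on an array lay between -5.90 and -5.44, so some dim members overlapped the lowest detected signals.

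A less strict call changed some of these receptors. With the positive and significant flag, 26 members counted as detected beside 60.4% of all named genes, the additions being Cd40, Tnfrsf4, Tnfrsf8, Tnfsf13b and Traf1. Above the 95th percentile of the negative controls, 25 did beside 59.5%, the additions being Cd40, Tnfrsf4, Tnfrsf8 and Tnfsf13b. No member called detected was lost under any of the 10 alternative detection rules and left-out arrays.

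Some known ligand and receptor pairs were set side by side by detection, since levels of different probes cannot be compared. The list is not complete: it holds no pair with Lta as the ligand, and the counts hold for the listed pairs only. Of the 19 listed pairs, whose genes all had a named probe, 4 had both partners detected: Tnf with Tnfrsf1a, Tnf with Tnfrsf1b, Ltb with Ltbr, and Tnfsf12 with Tnfrsf12a. In 4 others the ligand alone was detected, namely Tnfsf13 with Tnfrsf13b and with Tnfrsf17, Tnfsf15 with Tnfrsf25, and Tnfsf9 with Tnfrsf9. In 2 the receptor alone was, namely Fas without Faslg and Ltbr without Tnfsf14. The remaining 9 had neither partner detected, counting the partly detected Tnfsf13b as not detected; they include Cd40lg with Cd40 and Tnfsf11 with Tnfrsf11a. For the Ltb and Ltbr pair the Lta subunit was not detected, as given above. Beside these counts, 40.0% of the ligands, 31.6% of the receptors and 51.0% of all named genes were detected. Some genes stand in several pairs, and no count of pairs expected from these shares was made. The counts therefore do not show that partners were detected together more often than other genes.

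The adaptors were read on every array with 1 exception. Tradd, the death domain adaptor of the TNF receptor, was at 2.14, 1.90, 1.99 and 2.10 (2.03 ± 0.11). Fadd, which links death receptors to caspase-8, was at -2.50, -2.22, -2.42 and -2.50 (-2.41 ± 0.13). Traf2, the TRAF of the TNF receptor complex, was at -1.46, -1.15, -1.35 and -1.71 (-1.42 ± 0.23), highest on replicate 2 and lowest on replicate 4.

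Traf6, the ubiquitin ligase shared with Toll-like and interleukin-1 receptor signalling, was at -2.72, -2.61, -2.63 and -2.33 (-2.57 ± 0.17). Traf4 was at -3.37, -3.64, -3.21 and -2.97 (-3.30 ± 0.28), and Traf7, the TRAF that lacks the usual TRAF domain, at 0.19, 0.38, 0.08 and 0.08 (0.19 ± 0.14). Traf1, a TRAF induced by NF-kB in activated cells, was the adaptor not detected, with its probe at -7.07, -7.44, -6.65 and -7.47. Traf1 was among the genes that a call by the positive and significant flag added.

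The TRAF3-interacting proteins share the family's name but have other main roles. Traf3ip1, a protein of the ciliary transport machinery, was at -3.93, -3.39, -3.31 and -3.74 (-3.59 ± 0.29), and its second probe ordered the arrays differently (-4.15, -4.12, -4.25 and -3.88). Traf3ip2, the interleukin-17 receptor adaptor Act1, was at -0.01, -0.11, -0.19 and -0.06 (-0.09 ± 0.08). Traf3ip3 was at -2.04, -2.47, -2.94 and -2.85 (-2.57 ± 0.41), which was the widest spread of the detected members, with replicate 1 highest.

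Members that are neighbours in the genome were detected together in some cases and not in others. Among 10 pairs of members with at most 1 coding gene between them in GRCr8, 3 had both genes detected, 3 had neither and 4 had 1. Beside this, 47.7% of the members and 51.0% of all named genes were detected. Neighbouring pairs over all genes were not counted, so the mix is not read as a trait of the members. Besides the trio of Lta, Tnf and Ltb, Tnfsf12 and Tnfsf13, adjacent genes, were both detected, and so were Ltbr and Tnfrsf1a, with 1 coding gene between them. Cd27, on the other side of Ltbr with 1 coding gene between, was not detected. Tnfrsf1b was detected and the adjacent Tnfrsf8 was not. Tnfsf9 was detected, and neither Cd70, with 1 coding gene between, nor Tnfsf14, adjacent to Cd70, was. Tnfrsf4 with the adjacent Tnfrsf18, and Tnfsf4 with Faslg, were not detected.

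The detected members had a higher median SD between the replicate arrays than all genes tested, a difference that was not tested. The SD ran from 0.0746 for Tnfsf12 to 0.413 for Traf3ip3, with a median of 0.204. The median over all genes tested was 0.144, and over the 7074 genes whose mean signal lay within the range of the members it was 0.135. The median of the SDs fitted at the members' own signals was 0.156. With normexp on the median signal the medians lay closer together, at 0.132 for the members and 0.123 for all genes. The SD was above the value fitted for genes of the same signal in 11 of 21 members, beside 43.0% of all genes. By its brightest probe no member spanned over 2-fold between its highest and lowest array (0 of 21), beside 3.26% of the 8455 genes tested, a share so low that 0 of 21 lies near it.

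In the limma variance test, with Benjamini-Hochberg adjustment over all genes, 0 of 21 members were hypervariable, beside 0.237% of all genes tested (20 genes). The fit without trend also called 0 members. At an unadjusted p under 0.05 there were 3 members (Tnf, Traf3ip3 and Tnfrsf21), beside 6.29% of all genes. Tnf had an SD of 0.292 against a fitted 0.120 (adjusted p = 0.649, limma), Traf3ip3 0.413 against 0.193 (adjusted p = 0.707, limma) and Tnfrsf21 0.275 against 0.133 (adjusted p = 0.758, limma). The largest ratio of SD to fitted SD among the members was 2.45, for Tnf. In simulated data the test called only 48 of 100 genes at a ratio of 3. A p that misses the threshold does not show that the cultures were alike in these genes.

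**Figure D3:**
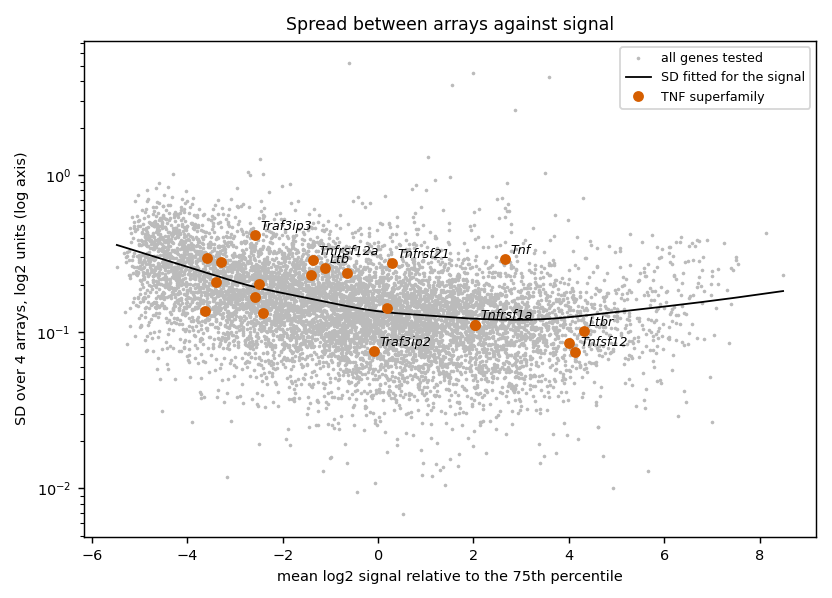
Each grey point is 1 of the 8455 genes tested, with its mean log2 signal on the horizontal axis and its SD over 4 arrays on a logarithmic vertical axis; orange points are the 21 detected TNF superfamily members and the line is the SD that limma fitted for genes of that signal. Tnf lies at 0.292 above the line, and Tnfsf12 at 0.0746 and Traf3ip2 at 0.0753 lie below it.

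The members did not move as a block across the arrays. Replicate 3 was the highest array for 8 members, replicate 4 for 5, and replicates 1 and 2 for 4 each. Over all genes tested, replicate 3 was highest in 19.6%, replicate 4 in 37.8%, replicate 1 in 16.4% and replicate 2 in 26.2%. Replicate 3 was the lowest array for 5 members and for 36.7% of all genes. Replicate 4 was lowest for 7 members (21.3% of all genes), replicate 1 for 5 (24.5%) and replicate 2 for 4 (17.4%). After scaling, replicate 3, the array with the brightest 75th percentile, was thus the highest for more members than any other array, though not for most. Over all genes that array was replicate 4. Among the members replicate 3 was highest more often, and lowest less often, than over all genes. These differences and the part of array brightness in them were not tested.

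Tnf, Ltb, Tnfsf9 and Tnfrsf12a shared 1 full order of the arrays, with replicate 3 highest, then 2, then 1, then 4. This order was noticed after the values were seen and was not tested. It held for 4 of 21 members and for 4.93% of all genes tested. In the pathway lists described below it held for 6 of 62 detected genes: Adam17, the protease that releases TNF from the membrane, the NF-kB genes Nfkb1 and Bcl3, Birc2, Junb and Plaur. The count of members was 5 with quantile scaling (6.20% of all genes), 2 with normexp on the median signal (3.84%), where Tnf and Ltb remained, and 8 with no scaling (37.5%). The 75th percentile of the arrays fell in the same order, at 1237 for replicate 3, 932 for replicate 2, 878 for replicate 1 and 831 for replicate 4. The part of array brightness in this order was not tested.

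**Figure D4:**
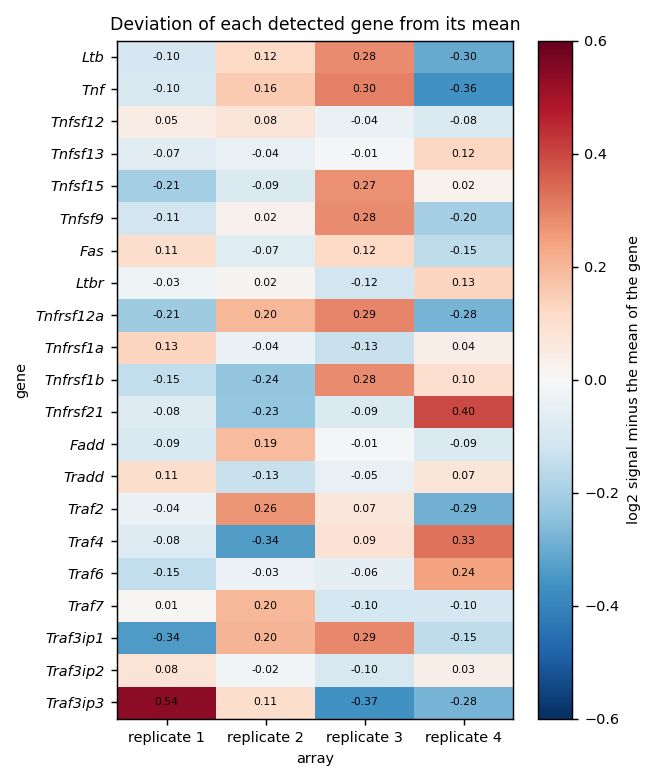
Rows are the 21 detected members, ordered as ligands, receptors, adaptors and TRAF3-interacting proteins, and columns the 4 replicate arrays; colours and printed values give the log2 signal minus the mean of the gene, red above and blue below. Tnf, Ltb, Tnfsf9 and Tnfrsf12a are red on replicates 2 and 3 and blue on replicates 1 and 4, and the strongest red is Traf3ip3 on replicate 1.

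Ltbr and Tnfrsf12a were each printed in 10 spots per array, so the spread between spots could be set beside that between arrays. For Ltbr the SD between spots of 1 array was 0.0547 to 0.0827, and the SD between array means was 0.101, or 1.45 times the pooled spot SD. Every Ltbr spot placed the arrays in the same order, with replicate 4 highest, then 2, then 1, then 3. The same spot was lowest on each array, so the spot SD includes position differences that the arrays shared. The ratio sets means over spots against single spots and does not measure how clearly the arrays differed. For Tnfrsf12a, after spots with an outlier flag were left out (8 to 10 kept), the spot SD was 0.0762 to 0.148 and the array SD was 0.288, or 2.59 times the pooled spot SD. The Tnfrsf12a spots of replicate 2 ran from -1.28 to -1.00 and those of replicate 3 from -1.19 to -0.89. Those of replicate 1 ran from -1.70 to -1.36 and those of replicate 4 from -1.85 to -1.45. The ranges of replicates 2 and 3 thus lay wholly above those of replicates 1 and 4. The bright probe of Traf3ip2 had 2 spots per array and went the other way: its array SD of 0.0753 was 0.50 times the pooled spot SD of 0.151. Spots of 1 array share 1 labelled RNA and are not replicates of the culture.

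**Figure D5:**
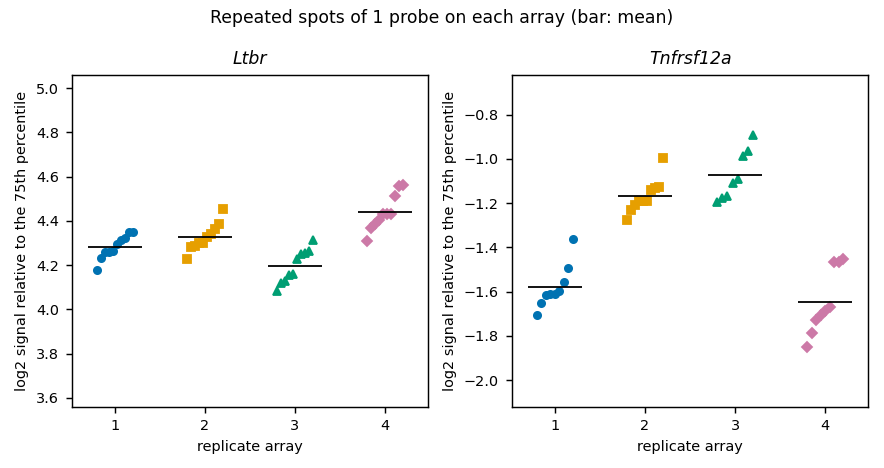
Each symbol is 1 spot without an outlier flag of the same probe, by replicate array, for Ltbr (left) and Tnfrsf12a (right), with log2 signal against the array's 75th percentile on vertical axes of equal length; bars are array means. The Ltbr spots of all arrays overlap in a chain between 4.08 and 4.56, while the Tnfrsf12a spots of replicates 2 and 3 lie at -1.28 or higher and those of replicates 1 and 4 at -1.36 or lower. The plot does not link the same spot across arrays, and each Ltbr spot placed the arrays in the same order.

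Genes downstream of the TNF receptors were mostly detected. Of 74 genes with a named probe in 6 pathway lists, 62 (83.8%) were detected, 2 partly and 10 not, beside 51.0% of all named genes. The lists were written with earlier results of these data known, and the difference was not tested. In the list of the receptor complex and its ubiquitin enzymes 15 of 16 were detected, including Ripk1, the kinase that TRADD recruits, and the linear ubiquitin ligase genes Rnf31, Rbck1 and Sharpin. The exception was the ubiquitin ligase Itch. Of the NF-kB kinases, factors and inhibitors 11 of 13 were detected; Tbk1 was well above background on 3 arrays and Map3k14, the kinase of the noncanonical pathway, on 1. Tnfaip3, Rel and Relb had no named probe.

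Death signalling genes were detected in 9 of 10 cases, with Casp8, its inhibitor Cflar, Bid and Ripk3 among them and the adaptor Cradd as the exception. In the MAP kinase arm 7 of 9 were, without Map2k6 and Map3k5. Of the genes for TNF processing and mRNA control 7 of 9 were, including Adam17 and Rhbdf2, which brings ADAM17 to the cell surface. The inhibitor Timp3 and the mRNA decay factor Zfp36, which destabilises the Tnf transcript, were not. Of 17 genes known to be induced by TNF, 13 were detected, and Il6, Csf1, Tnfaip6 and Vcam1 were not.

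No pathway gene was hypervariable in the limma test (0 of 62, smallest adjusted p = 0.345), and their median SD was 0.150. At an unadjusted p under 0.05 there were 8 (12.9%), beside 6.29% of all genes. Map2k7 and Cxcl1 spanned over 2-fold (2 of 62, beside 3.26% of all genes). Cxcl1, a neutrophil chemokine, was at -4.84, -4.12, -3.16 and -4.31, and Cxcl2, its relative, at 0.39, 0.61, 1.36 and 0.88, both highest on replicate 3 and lowest on replicate 1. Nfkb1, which encodes an NF-kB subunit and is itself a target of the pathway, was at -0.16, 0.04, 0.27 and -0.47. Litaf, named as a factor that acts on Tnf transcription, was at 3.39, 3.39, 3.38 and 3.41 and varied least in these lists.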

How the data were processed

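RNA of 4 replicate cultures (100 ng each, integrity number above 7.5, per the labels' protocols) was labelled with Cy3 and measured on 4 one-colour Agilent arrays. Per the file headers, the deposited values are linear intensities from Agilent Feature Extraction 11.0.1.1, processed within each array and not scaled between arrays, and the deposited flags (other values of 0 or 1) give detection and outliers. All 4 arrays lie on 1 slide.

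Control spots were left out, spots with an outlier flag were dropped, and the spots of a probe were averaged as log2 processed signal, from which the 75th percentile of that array was subtracted. A probe with several spots counted as well above background when more than 50% of them did. Accessions were matched without version to RefSeq (GRCr8, for names and neighbours); 21109 of 45598 probes matched 1 gene. The array header names another build (rn4), so only the RefSeq promoter windows carry coordinates. A gene's value is that of its brightest probe. Spread was tested over 8455 detected genes by an intercept-only limma 3.58.1 fit in R 4.3.3 (eBayes with trend and robust fitting), the residual variance against the fitted variance in an upper-tail F test with Benjamini-Hochberg adjustment at 0.05. In simulated data the test called 48 of 100 genes whose SD was 3 times the fitted one. It called 100 of 100 at 10 times and 0 of 8255 genes left unchanged. Simulated SDs were the fitted SD or a fixed multiple of it, with no further scatter between genes. These shares therefore do not give the power on the real arrays. Python 3.11.15, numpy 2.4.6, pandas 2.3.3 and matplotlib 3.10.9 did the rest.

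The precision is limited by the number of arrays. Every detected member was named with its values. A gene of the pathway lists could be named when not detected or when among the up to 4 of its list with the highest or lowest SD, and not all such genes were; Tbk1, Map3k14, Ripk1, Rnf31, Rbck1, Sharpin, Casp8, Ripk3, Adam17, Bcl3, Birc2, Junb and Plaur were named after their values were seen. The members and lists were chosen with earlier results of these data known. Alternatives covered detection, scaling, background, dim probes, the probe rule, the variance model and each left-out array.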

Additional observations from a re-analysis of the deposited data

Results flagged for a closer look

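Dixon's test at the 95% level, which chance passes in about 1 set in 20, was run on 68 sets of 4 array values: the 50 member probes and 18 pathway genes. It set 1 array apart in 6 sets, all of them probes that had the detection flag on no array. The gap to the nearest other array, as a share of the whole range, was 0.905 for Tnfrsf25, where replicate 1 was highest (-6.07, beside -7.51, -7.62 and -7.48 on replicates 2 to 4). It was 0.866 for Cd70, 0.865 for the dim probe of Cd27, 0.851 for Tnfsf10, 0.845 for Tnfrsf18 and 0.841 for Tnfrsf11a, and in each of these 5 replicate 3 was lowest. Replicate 3 also had the highest 75th percentile, which is subtracted. Before that step replicate 4, and not replicate 3, had the lowest intensity in each of these 5 probes. Cd70, for example, was at 3.95, 4.34, 4.19 and 3.71 on replicates 1 to 4. The part of the subtraction in these far values was not tested. Over all genes, 22.2% of the 7045 not detected and 6.2% of the 8455 detected had an array that far apart. None of the 25 member probes that were well above background on 1 or more arrays, and none of the 18 pathway genes, did.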

How the results depend on the processing

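The count of detected members was 21 to 26 over the 6 detection alternatives and 21 to 22 when each array was left out in turn, and that of pathway genes 63 to 66 over 3 such alternatives and 62 to 63 over the left-out arrays. The count of hypervariable members was 0 under all 11 alternatives of its test, which included each left-out array. Members over 2-fold numbered 5 with no scaling, 9 with no filter on dim probes, which adds members that were not detected, and 1 with every detected probe, the dim Tnf probe; they numbered 0 when any array was left out. The median SD of the members was 0.357 with no scaling, which leaves the brightness of each array in the values. It was 0.132 with normexp, beside 0.123 over all genes, and 0.153 to 0.202 over the left-out arrays. Quantile scaling moved the mean of no member by more than its SD, normexp moved 13 of 21, and the mean of all detected probes moved 2 (Tnf and Traf3ip2). Over all genes the count of hypervariable genes was 20, and it was 3 without replicate 3, 61 without replicate 2, 51 without replicate 1, 10 without replicate 4, 10 with quantile scaling, 58 with normexp, 79 with no filter, 4 with no trend and 13 with every detected probe; the cause was not tested. Normexp on the mean signal was not run, since the mean signal was not analysed here; the median signal replaced it, a choice made after seeing the data. No paired analysis was possible because the series holds 1 group. Signal over background limits the members that were not detected: a dim probe bounds its own signal and not the transcript. For a gene read by 1 probe, a weak probe and a low transcript level cannot be told apart. The test of spread is limited by 4 arrays.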
